A study of Mus musculus with 12 samples.

Results

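The mouse mitochondrial genome carries 37 genes, and all of them were found in the deposited table by the prefix mt- of their names, among 54146 genes in all. They are 13 protein genes, 2 ribosomal RNA (rRNA) genes and 22 transfer RNA (tRNA) genes. The samples were 12 RNA libraries made from the D2A1 line of mouse mammary carcinoma, which carried a histone-GFP reporter (H2B-GFP), recovered from the lungs of female mice aged 6 to 8 weeks after injection into the tail vein. Cells were stained before injection with CellVue Claret (CVC), a membrane dye that division dilutes, and aliquots of 50 GFP+ cells were sorted as dormant where they had kept the dye and as growing where they had lost it. The hosts were control mice, called WT here, or Tgfbr2 KO mice, in which Cre under the Lysozyme 2 promoter deleted this TGF-β receptor in myeloid cells. The labels and the sequencing methods name the controls WT. The figure legend for this experiment instead names mice with a floxed Tgfbr2, so the sources differ on their genotype. State and host gave 4 groups with 3 libraries each, called WT dormant and KO dormant, and WT growing and KO growing. The deletion lay in host cells and not in the sorted line, so the level of Tgfbr2 does not check the labels. Every WT library was labelled Batch1 and every KO library Batch2, so host and batch cannot be told apart. The labels do not say what kind of batch this was. The methods give day 12 for the sort, whereas another passage gives day 14.

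Mitochondria keep a small circular genome of their own, of which each cell holds many copies. One polymerase reads each strand into long precursors, and the tRNAs that stand between most other genes are cut out to release the messenger and ribosomal RNAs, most of which then receive a short poly(A) tail inside the organelle. The proteins made from this genome are core subunits of complexes I, III and IV of the respiratory chain and of ATP synthase, and every other subunit is imported from the cytosol. Complex II is made from nuclear genes alone. How much each messenger accumulates is set largely by its stability, and LRPPRC and SLIRP are among the nuclear-encoded proteins known to protect it.

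Part of this genome has also been copied into the nucleus in the course of evolution, and the copies decide how some of the values can be read. A search of the GENCODE M21 annotation (GRCm38, the same assembly as mm10) for shared runs of 50 bases found 15 annotated nuclear copies, of which 14 were in the table under names of their own. A block on chromosome 1, chr1:24611535-24616197 on the minus strand, holds a copy of mt-Atp6, mt-Co2, mt-Co3, mt-Nd3, mt-Nd4l and part of mt-Nd4 with 0 differing bases over the aligned stretch. Its copy of the end of mt-Co1 differed at 1 of 483 aligned bases. The following windows from that assembly show why reads cannot always be placed. In mt-Co1 (chrM:6448-6507) the chromosome 1 copy (chr1:24616071-24616130) is the same, and an older copy on chromosome 2 (chr2:22588468-22588527) differs at the 3 bases in capitals.

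mt-Co1: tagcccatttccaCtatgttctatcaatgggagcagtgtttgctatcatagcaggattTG
Chromosome 1 copy of mt-Co1: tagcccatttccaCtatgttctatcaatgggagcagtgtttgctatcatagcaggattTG
Chromosome 2 copy of mt-Co1: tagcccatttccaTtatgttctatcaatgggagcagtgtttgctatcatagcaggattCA

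In mt-Nd3 (chrM:9559-9618) the chromosome 1 copy (chr1:24612960-24613019) holds the same 60 bases, and a read inside them fits both places equally well.

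mt-Nd3: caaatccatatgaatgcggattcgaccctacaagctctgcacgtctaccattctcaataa
Chromosome 1 copy of mt-Nd3: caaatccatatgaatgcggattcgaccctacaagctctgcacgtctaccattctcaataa

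A second kind of sharing lies within the mitochondrial genome. The coding sequences of mt-Atp8 and mt-Atp6 overlap by 43 bases and those of mt-Nd4l and mt-Nd4 by 7, each pair on 1 messenger. The overlaps are shown in capitals with the 20 bases before them, and start with the ATG of the downstream gene.

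Overlap of mt-Atp8 and mt-Atp6 (chrM:7907-7969): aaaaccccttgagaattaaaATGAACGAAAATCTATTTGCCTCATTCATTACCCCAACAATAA
Overlap of mt-Nd4l and mt-Nd4 (chrM:10147-10173): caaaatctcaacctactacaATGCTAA

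Values are TPM, a transcript abundance scale whose values divide out gene length and sum to 1000000 in every library. They compare genes within a library per length, but keep no read depth, and a rise of one gene lowers the others. WT dormant had the fewest genes above 0, 11325 to 13242 a library, against 13406 to 14063 in KO growing, 14352 to 14475 in WT growing and 14770 to 15315 in KO dormant. The KO dormant libraries stood apart from the other groups and against the cell line named on their labels. The summed TPM of 4 genes high in this tumour line (Spp1, Akr1c18, Krt18 and Krt8) was 1467 to 1875 in KO dormant and 31034 to 43092 in the other groups. Spp1 made up 82.9% to 94.8% of that sum as a group mean. Spp1, Akr1c18 and Krt8 were called lower in KO dormant than in WT dormant, while Krt18 was at 159 to 249 TPM against 131 to 231, which overlapped. All 6 alveolar type 2 markers, among them Sftpc, surfactant protein C, were detected in each KO dormant library with a sum of 40059 to 42399, against 42.1 to 464 elsewhere. The erythroid sum was 50831 to 56264 against 6196 to 13031, the neutrophil sum 4030 to 4351 against 51.7 to 886, the endothelial sum 338 to 465 against 1.14 to 27.4, and the fibroblast sum 1267 to 1561 against 15.2 to 310. The highest values outside KO dormant were in KO growing for some lists: there the alveolar type 2 sum was 456 to 464 against 52.5 to 95.1 in WT growing, the fibroblast sum 281 to 310 against 17.4 to 29.3 and the club and ciliated sum 1015 to 1025 against 289 to 303. Of their tested genes 2 of 6, 2 of 5 and 1 of 3 were called higher, where 0.977% of all tested genes were called in either direction. In those lists no gene was at 0 throughout KO dormant, except Mpo among the neutrophil and Foxj1 among the club and ciliated markers. Between WT dormant and WT growing other markers moved: the neutrophil sum was 326 to 886 against 51.7 to 79.1 and the macrophage sum 73.1 to 159 against 3.16 to 10.8. Here 2 of 3 and 2 of 4 tested genes were called higher, where 7.51% of all tested genes were called in either direction. These marker levels stand beside every comparison below, and their part in the mitochondrial differences was not tested. In these bulk aliquots fewer cells of a type and less RNA per cell cannot be told apart.

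The 37 genes together took 4 to 8% of all TPM. Their sum was 6.13%, 4.29% and 6.62% in WT dormant, 7.59%, 6.97% and 6.97% in KO dormant, 6.30%, 5.66% and 5.52% in WT growing, and 4.03%, 4.23% and 3.81% in KO growing. KO dormant was thus above every other group and KO growing below every other group, with no overlap, while the WT groups overlapped. With the nuclear copies added, KO dormant overlapped with WT dormant, at 9.46%, 8.45% and 8.64% against 8.15%, 5.63% and 8.63%, and KO growing stayed below every other group, at 4.80% to 5.45%. Nearly all of this came from the protein genes, at 6.78% ± 0.32 (SD, n = 3) in KO dormant and 3.92% ± 0.22 (SD, n = 3) in KO growing. The rRNA genes added 0.40% ± 0.04 (SD, n = 3) in both dormant groups, 0.21% ± 0.07 in WT growing and 0.10% ± 0.01 in KO growing. All 22 tRNA genes were listed at 0 in all 12 libraries, so they were not tested. Mature tRNAs are short and end in CCA without a poly(A) tail, and the labels name polyA RNA as the molecule sequenced. Why the tRNA genes were at 0 was not tested. The messengers spanned a wide range per length. In WT growing mt-Atp6, at a mean of 18154 TPM, ranked 2 among all genes in the table, mt-Atp8 ranked 4, mt-Cytb 5 and mt-Nd4l 2122.

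**Figure D1:**
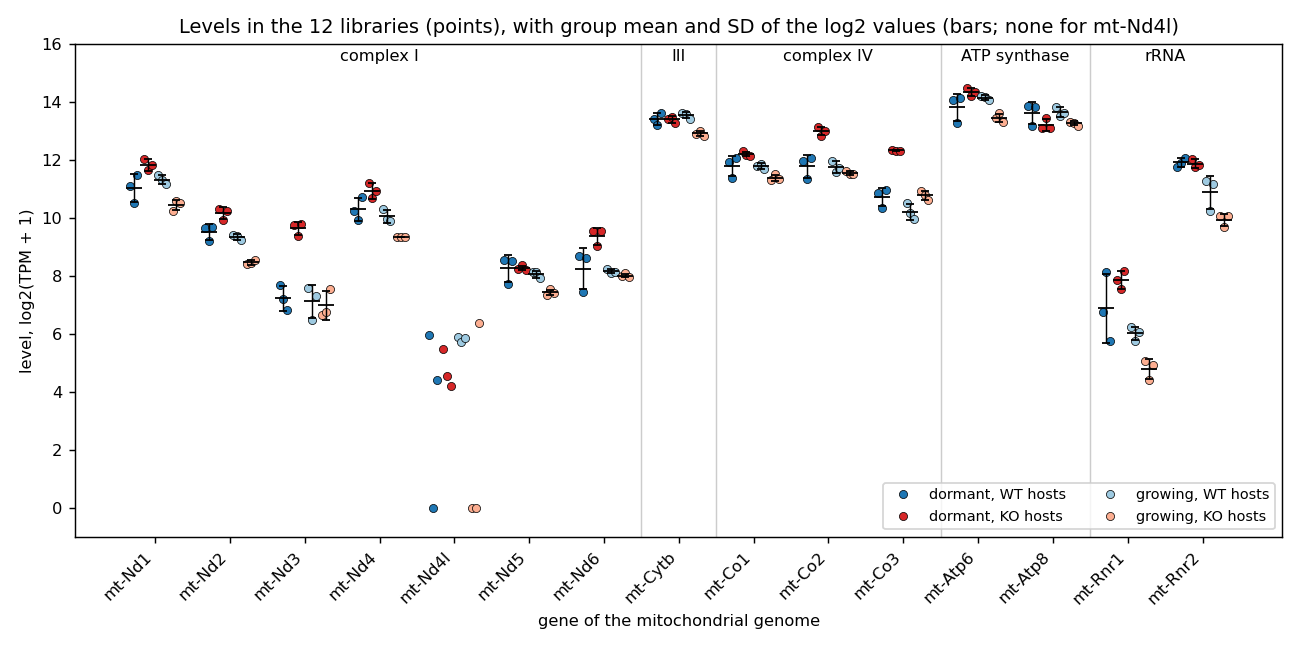
Level of each protein and rRNA gene on a log2(TPM + 1) axis in the 12 libraries, coloured by group, with the group mean and SD of the log2 values except for mt-Nd4l. KO dormant libraries lie above all others for mt-Nd3 (660 to 880 TPM) and mt-Co3 (5098 to 5205 TPM), and both dormant groups lie above both growing groups for mt-Rnr2.

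Differences below are on the log2(TPM + 1) scale from limma fitted to all 12 libraries, with p adjusted by the Benjamini-Hochberg method over 13002 tested genes. All 13 protein genes and both rRNA genes passed the filter on low values. A call needed an adjusted p of 0.05 or less and a size of 1 or more, and a second count with no minimum difference is given because many of these abundant genes changed by less. Between KO dormant and KO growing 7 of the 13 protein genes were called higher and 0 lower, where 17.8% of all tested genes were called in either direction. With no minimum difference 11 were higher and 0 lower, against 19.2% of all genes. The median of the 13 was 1.39 and that of all tested genes -0.32. In WT hosts the same comparison of states called 0 of 13, with or without a minimum, against 7.51% and 8.44% of all genes, although 3113 of all genes had an unadjusted p below 0.05. The median of the 13 there was 0.03 and that of all genes -0.35.

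The hosts were compared next within each state. In dormant cells 4 of 13 protein genes were called higher and 0 lower in KO against WT hosts, and 8 and 0 with no minimum, against 22.3% and 24% of all genes. In growing cells 0 of 13 were called, and 0 higher and 2 lower with no minimum, against 0.977% and 1.05% of all genes. In the latter comparison 979 of all genes had an unadjusted p below 0.05. The medians of the 13 lay on opposite sides of 0, at 0.65 in dormant and -0.62 in growing cells, beside 0.17 and 0.02 for all genes. The test of that difference itself, the interaction of state and host, called 7 of 13 higher and 0 lower, and 9 and 0 with no minimum, against 10.1% and 10.4% of all genes. The count of 7 became 3 in a fit without trend, 11 under median-ratio scaling and 1 when scaled to the mitochondrial protein genes. Over both hosts together, 2 of 13 were higher in dormant than in growing cells and 9 with no minimum, against 19.6% and 23.8% of all genes, and 3 of the 6 dormant libraries here were KO dormant.

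**Figure D2:**
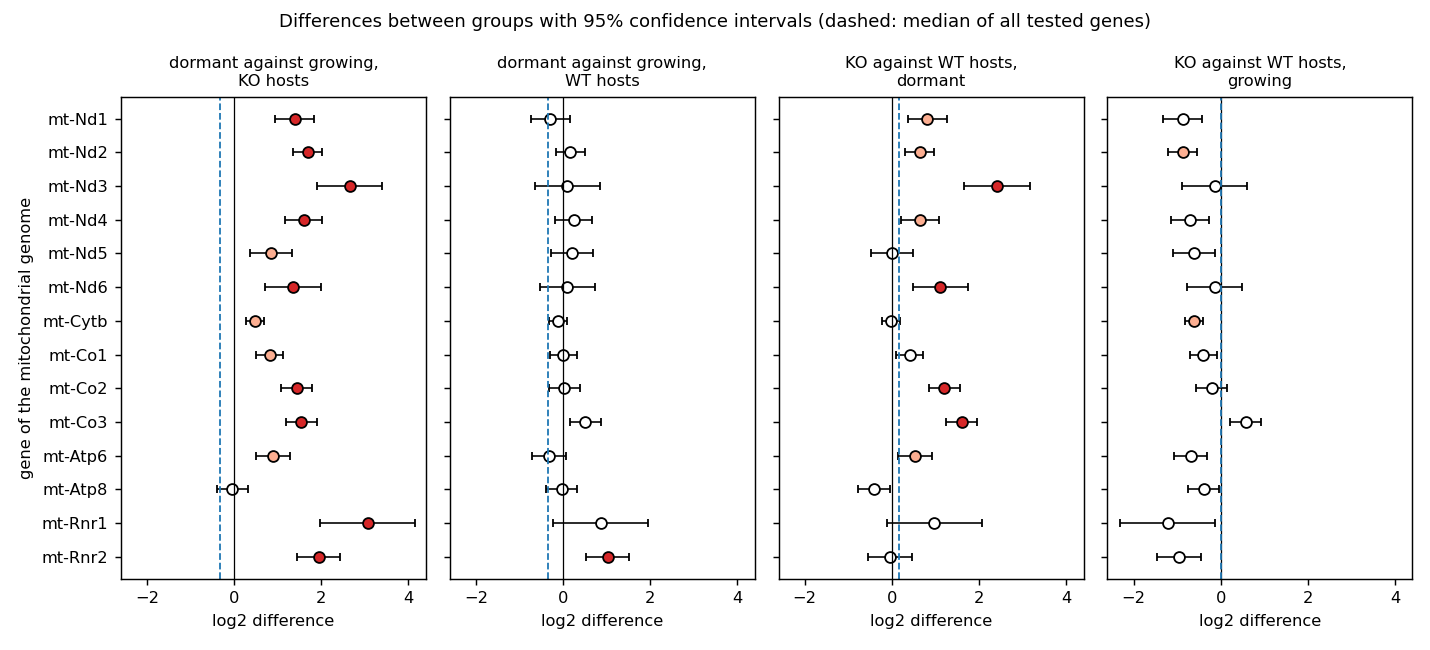
Log2 differences of 12 protein genes and 2 rRNA genes in 4 comparisons, with 95% confidence intervals. Red points passed both the adjusted p and the minimum difference, pale points the adjusted p alone and open points neither, and the dashed line is the median of all tested genes. The protein genes sit to the right of that line in KO hosts (median 1.39) and near 0 in WT hosts (median 0.03). Intervals of mt-Nd4l, which was listed at 0 in 3 libraries, are not drawn.

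Complex I, the entry point of electrons from NADH, has 7 subunits from this genome, and one of these, mt-Nd3, had the largest called difference between states in KO hosts among the 13 protein genes. mt-Nd3 (chrM:9459-9806, plus strand), a membrane subunit that links to the quinone site, was at 860, 660 and 880 TPM in KO dormant. It was at 203, 145 and 112 TPM in WT dormant, at 189, 88.9 and 158 in WT growing and at 98.6, 107 and 187 in KO growing. The KO dormant values did not overlap with any of the others, which overlapped among themselves. The difference was 2.65 ± 0.34 (SE; 6.27-fold, adjusted p = 0.000271) against KO growing and 2.41 ± 0.34 (5.30-fold, adjusted p = 0.000372) against WT dormant. The interaction was 2.55 ± 0.49 (adjusted p = 0.00643).

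mt-Nd1 (chrM:2751-3707) and mt-Nd2 (chrM:3914-4951), which lie next to each other after the rRNA genes and form part of the proton-pumping membrane arm. mt-Nd1 was at 2168, 1462 and 2850 TPM in WT dormant and at 4219, 3180 and 3650 in KO dormant. In growing cells it was at 2837, 2557 and 2297 TPM in WT and at 1204, 1539 and 1463 in KO hosts. The groups by host did not overlap in either state, with KO the higher in dormant and the lower in growing cells. The differences were 0.81 ± 0.20 (adjusted p = 0.0125), under the minimum, in dormant cells and -0.87 ± 0.20 (adjusted p = 0.0886), which did not pass, in growing cells. The KO dormant to KO growing difference was 1.39 ± 0.20 (2.62-fold, adjusted p = 0.000607) and the interaction 1.69 ± 0.29 (adjusted p = 0.00394). mt-Nd2 was at 797, 590 and 824 TPM in WT dormant, 1266, 966 and 1205 in KO dormant, 686, 657 and 603 in WT growing and 340, 344 and 373 in KO growing. It was higher in KO dormant than in KO growing by 1.69 ± 0.15 (3.23-fold, adjusted p = 2.72e-05), with an interaction of 1.52 ± 0.22 (adjusted p = 0.00146). In growing cells it was lower in KO hosts by a difference of -0.88 ± 0.15 (0.544-fold, adjusted p = 0.0172), below the minimum for a call.

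mt-Nd4 (chrM:10167-11544) and mt-Nd5 (chrM:11742-13565) encode the antiporter-like pump subunits at the far end of the membrane arm. mt-Nd4 was at 2383, 1628 and 1947 TPM in KO dormant and within 649 to 651 in all 3 KO growing libraries. It was at 1196, 974 and 1690 TPM in WT dormant and at 1257, 997 and 944 in WT growing, and only its KO growing values lay apart from all other groups. Its state difference was 1.59 ± 0.20 in KO hosts (3.01-fold, adjusted p = 0.000192), and its interaction 1.35 ± 0.28 (adjusted p = 0.00958, or 0.0906 and not called in a fit without trend). mt-Nd5 moved less: it was at 304, 327 and 294 TPM in KO dormant and at 163, 184 and 168 in KO growing, a difference of 0.84 ± 0.22 (adjusted p = 0.019). In WT hosts it was at 374, 211 and 363 TPM in dormant and at 278, 277 and 240 in growing cells, and these overlapped. mt-Nd6 (chrM:13552-14070) is the protein gene read from the opposite strand to the other 12. It was at 739, 517 and 741 TPM in KO dormant, 414, 173 and 390 in WT dormant, 298, 271 and 281 in WT growing and 252, 271 and 248 in KO growing. Its difference was 1.35 ± 0.29 against KO growing (adjusted p = 0.00647) and 1.11 ± 0.29 against WT dormant (adjusted p = 0.0155), the latter resting on WT dormant replicate 2, without which it was 0.71. Leaving out KO dormant replicate 1 or replicate 3 also ended that call, at 1.03 and 1.02, as did a fit of only the groups compared (adjusted p = 0.134) and one without trend (adjusted p = 0.0561). mt-Nd4l (chrM:9877-10173) was the least abundant messenger, at 61.1, 0 and 20.3 TPM in WT dormant, 43.3, 22.2 and 17.5 in KO dormant, 57.8, 51.3 and 57.3 in WT growing and 0, 0 and 82.3 in KO growing. No comparison called it, and most of its signal was listed under its nuclear copy.

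mt-Cytb (chrM:14145-15288), cytochrome b, is the mitochondrially encoded subunit of complex III. Its level was 11005, 9431 and 12513 TPM in WT dormant, 10898, 11500 and 9962 in KO dormant and 12443, 12336 and 10921 in WT growing, and these 3 groups overlapped. KO growing lay below them at 7645, 8272 and 7303 TPM. The KO growing group was lower than WT growing by a difference of -0.62 ± 0.09 (0.651-fold, adjusted p = 0.00761) and KO dormant was higher than KO growing by 0.48 ± 0.09 (adjusted p = 0.00394; -0.05 and adjusted p = 0.738 with quantile normalization), both under the minimum for a call.

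Complex IV, cytochrome c oxidase, has its 3 core subunits from this genome, and their messengers did not move alike. mt-Co2 (chrM:7013-7696), which takes electrons from cytochrome c, was at 8897, 7328 and 8123 TPM in KO dormant, above every other library. The other groups were at 3964, 2575 and 4281 TPM in WT dormant, at 3989, 3055 and 3369 in WT growing and at 3132, 2930 and 2902 in KO growing. The difference was 1.44 ± 0.16 against KO growing (2.71-fold, adjusted p = 0.000117) and 1.20 ± 0.16 against WT dormant (2.30-fold, adjusted p = 0.000277), the latter under the minimum, at 0.97, without WT dormant replicate 2. With that library left out, 2 of 13 genes were called between the dormant groups.

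mt-Co3 (chrM:8607-9390), the third core subunit, was at 5205, 5104 and 5098 TPM in KO dormant and at 1852, 1308 and 1977 in WT dormant. WT growing was at 1451, 1142 and 1002 TPM, and KO growing was at 1945, 1784 and 1577. KO dormant again did not overlap with the rest, and KO growing lay above WT growing, the reverse of mt-Nd1, mt-Nd2 and mt-Cytb, an order that turned once its nuclear copy was added (2349 to 2732 against 2760 to 3243 TPM). The differences were 1.54 ± 0.16 against KO growing (2.91-fold, adjusted p = 6.73e-05) and 1.61 ± 0.16 against WT dormant (3.05-fold, adjusted p = 3.51e-05). The interaction was 1.03 ± 0.23 (adjusted p = 0.0137), and fell under the minimum without WT dormant replicate 2 (0.85), WT growing replicate 1 (0.89) or KO growing replicate 3 (0.95). It was also not called without trend (adjusted p = 0.167), with quantile normalization (0.64, adjusted p = 0.127) or with array weights (adjusted p = 0.0679). Over both hosts mt-Co3 (1.03 ± 0.11, adjusted p = 0.000137) and mt-Nd3 (1.38 ± 0.24, adjusted p = 0.00234) were the called genes. The mt-Co3 call over both hosts was lost, at 0.97 to 0.99, when WT dormant replicate 1 or 3, WT growing replicate 3 or KO growing replicate 3 was left out, and at 0.94 with the nuclear copy summed in. mt-Co1 (chrM:5328-6872), the subunit with the oxygen-reducing centre, spanned a narrower range. It was at 5008, 4599 and 4504 TPM in KO dormant, 3889, 2668 and 4258 in WT dormant, 3540, 3745 and 3280 in WT growing and 2540, 2888 and 2585 in KO growing. Its difference between states in KO hosts was 0.82 ± 0.14 (1.76-fold, adjusted p = 0.00165).

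The ATP synthase pair, mt-Atp8 (chrM:7766-7969) and mt-Atp6 (chrM:7927-8607), encode subunits of the membrane sector that conducts protons, and share 1 messenger. mt-Atp6 was at 22921, 19058 and 20711 TPM in KO dormant and at 11084, 12475 and 10205 in KO growing. It was at 16982, 9996 and 17824 TPM in WT dormant and at 18997, 18404 and 17061 in WT growing. It was higher in KO dormant than in KO growing by 0.89 ± 0.18 (1.86-fold, adjusted p = 0.00377; -0.04 and adjusted p = 0.905 with quantile normalization), and the interaction was 1.22 ± 0.25 (adjusted p = 0.00903), or 0.95 and under the minimum without WT dormant replicate 2. Summed with its nuclear copy, its interaction was 0.62 and no longer called (adjusted p = 0.155), nor was it called without trend (adjusted p = 0.119). mt-Atp8 did not follow. It was at 8757, 11218 and 8729 TPM in KO dormant and at 10197, 9982 and 9281 in KO growing, which overlapped, at 14800, 9267 and 14669 in WT dormant and at 14494, 11718 and 12596 in WT growing. The ratio of mt-Atp8 to mt-Atp6 was therefore 0.382, 0.589 and 0.421 in KO dormant. It was 0.871, 0.927 and 0.823 in WT dormant, 0.763, 0.637 and 0.738 in WT growing and 0.920, 0.800 and 0.910 in KO growing, all above the KO dormant values. That separation was lost once mt-Atp6 was summed with its nuclear copy, described further below: the ratio was then 0.374, 0.574 and 0.415 in KO dormant, 0.576, 0.587 and 0.550 in WT dormant and 0.682, 0.572 and 0.679 in WT growing, which overlapped with KO dormant, and 0.885, 0.654 and 0.833 in KO growing, which did not. mt-Atp8 spans 204 bases, 43 of them shared, so its share of the reads was set by estimation.

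The make-up of the messenger pool changed along with its size. mt-Atp6, mt-Atp8 and mt-Cytb together made up 72.35% to 76.8% of the TPM of the 13 protein genes in the other 9 libraries and 59.5%, 63.2% and 59.8% in KO dormant. The complex IV genes made up 26.7%, 25.8% and 26.9% in KO dormant, against 16.8% to 17.0% in WT dormant, 14.4% to 14.8% in WT growing and 18.4% to 19.4% in KO growing. These 4 groups did not overlap in that share. With nuclear copies summed in, it was 30.7% to 33.0% in KO dormant and 23.0% to 24.9% in KO growing, while the WT groups overlapped, at 20.3% to 20.9% in dormant and 19.3% to 20.5% in growing cells. The 7 complex I genes made up 12.7% ± 1.4 (SD, n = 3) in KO dormant and 6.90% to 10.1% in the other 9 libraries, with no overlap, as in the sums with copies (11.6% to 13.8% against 7.59% to 9.62%). The mt-Co1 share had group means between 6.28% and 6.93%, but in those sums it was 8.47% to 9.38% in WT hosts and 11.05% to 11.8% in KO hosts. The chromosome 1 copy of mt-Co1 spans 492 bases against 1545 for the gene. The effect of the weight given to it on that contrast was not tested. The share of mt-Atp8 was 12.2% to 17.0% in KO dormant and 21.2% to 26.0% elsewhere, or 10.8% to 15.3% and 18.5% to 23.6% in the sums. The ratio of mt-Nd5 to mt-Nd6, which lie side by side on opposite strands, was 0.411, 0.632 and 0.397 in KO dormant, 0.646 to 0.681 in KO growing and 0.852 to 1.22 in the WT groups.

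**Figure D3:**
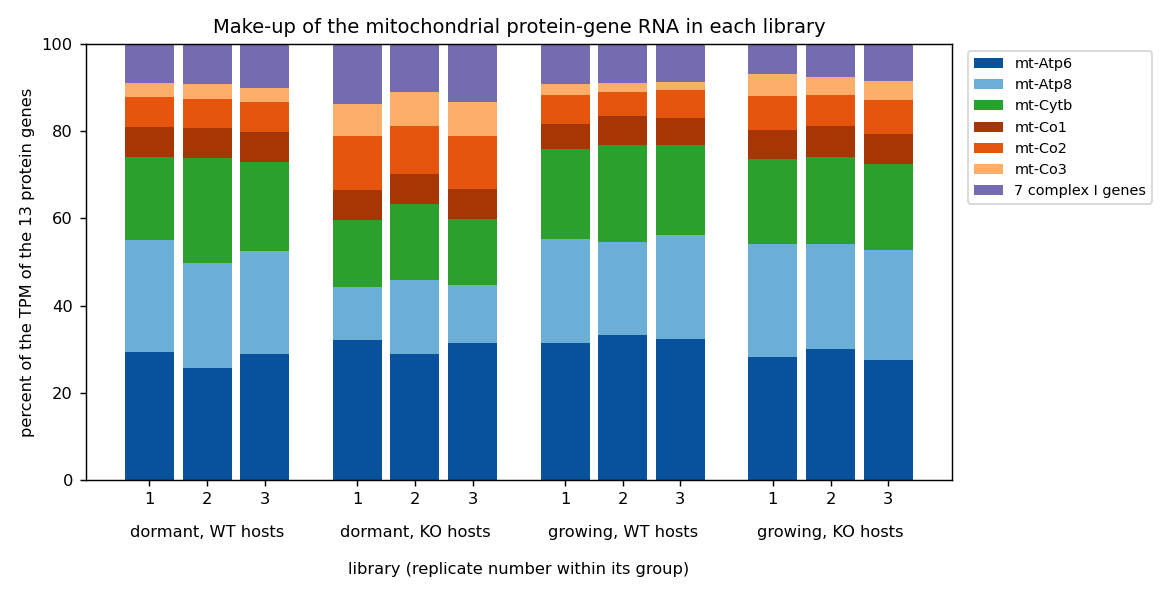
Percent of the summed TPM of the 13 protein genes taken by each gene or gene group, 1 bar per library. In KO dormant the mt-Atp8 segment is narrower (12.2% to 17.0%) and the mt-Co2, mt-Co3 and complex I segments are wider than in the other 9 libraries.

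Both rRNA genes were called higher in dormant than in growing cells in KO hosts, and mt-Rnr2 in WT hosts as well, against the same shares of all genes as above. mt-Rnr2 (chrM:1094-2675), the RNA of the large mitochondrial ribosomal subunit, was at 3444, 3827 and 4332 TPM in WT dormant and at 4202, 3459 and 3594 in KO dormant. It was at 2446, 1202 and 2311 TPM in WT growing and at 1057, 822 and 1066 in KO growing. The dormant groups overlapped with each other and lay above both growing groups, which did not overlap. Its state difference was 1.94 ± 0.23 in KO hosts (3.83-fold, adjusted p = 0.000142), 1.02 ± 0.23 in WT hosts (2.03-fold, adjusted p = 0.0186) and 1.48 ± 0.16 over both (adjusted p = 0.000112). The WT call was close to the minimum. It ended without WT dormant replicate 3 (0.94) or WT growing replicate 2 (0.70), and in a fit of the WT libraries alone, which leaves KO dormant out of the estimate of spread (adjusted p = 0.13, within a range of 0.0142 to 0.307 over the alternatives).

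mt-Rnr1 (chrM:70-1024), the small subunit RNA, was listed at much lower levels than mt-Rnr2, although both come from 1 precursor. It was at 108, 277 and 53.2 TPM in WT dormant, 228, 187 and 290 in KO dormant, 73.4, 53.2 and 65.8 in WT growing and 32.6, 20.2 and 29.0 in KO growing. The spread in WT dormant covered the whole WT growing range. mt-Rnr1 was higher in KO dormant than in KO growing by 3.06 ± 0.50 (8.36-fold, adjusted p = 0.00116) and over both hosts by 1.97 ± 0.35 (adjusted p = 0.00251). mt-Rnr2 exceeded mt-Rnr1 by a ratio of 12.4 to 81.5 across the libraries, both extremes in dormant cells. Between hosts neither rRNA gene was called in dormant or in growing cells by limma, while with an unadjusted p below 0.05 both were lower in KO growing than in WT growing (0.0314 for mt-Rnr1 and 0.00136 for mt-Rnr2). The interaction called neither, with an unadjusted p of 0.00933 for mt-Rnr1 and 0.0155 for mt-Rnr2.

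The nuclear copies were then set beside the genes they resemble. Together they took 1.05% ± 0.16 (SD, n = 3) of all TPM in KO growing, 1.05% to 1.27% in WT growing, 1.67% ± 0.20 in KO dormant and 1.79% ± 0.39 in WT dormant. For each gene, the TPM of gene and copies were summed with weights for annotated length, to limit the effect of how reads were shared between them. Whether the sum is free of that effect was not tested. For mt-Co1 the lengths differ, at 1545 bases for the gene and 492 for its chromosome 1 copy. Of the sum of gene and copies mt-Nd4l had 84.5% to 100% under its copy, mt-Co1 36.95% to 49.5%, mt-Co3 17.2% to 63.7% and mt-Nd3 0% to 68.7%. For mt-Co2 it was 21.7% in WT growing replicate 2 and 0.00813% to 6.47% in the other 11 libraries. mt-Atp6 had 33.2% to 36.7% under its copy in WT dormant, 8.03% to 10.6% in WT growing, 3.78% to 18.3% in KO growing and 1.65% to 2.45% in KO dormant. These shares did not follow the level listed for mt-Atp6, which by group mean was lowest in KO growing. mt-Nd2, mt-Nd5, mt-Nd4 and mt-Rnr2 had under 1% there.

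Summing gene and copies left most comparisons as they were and altered mt-Atp6. The same sum was called for 4 protein genes between KO dormant and WT dormant, 7 between KO dormant and KO growing, 0 in each of the comparisons within WT hosts and within growing cells, 1 over both hosts and 6 for the interaction, where the gene lost was mt-Atp6. Summed mt-Atp6 was at 25695, 15797 and 26686 TPM in WT dormant and at 23422, 19537 and 21058 in KO dormant, which overlapped. Its difference between them was -0.06 ± 0.18, in place of 0.53 ± 0.18 for the gene alone. Summed mt-Co3 was again highest in KO dormant, at 8584, 7078 and 7593 TPM, with 4145, 3055 and 4010 in WT dormant, 3243, 3132 and 2760 in WT growing and 2349, 2732 and 2597 in KO growing. KO growing now lay below WT growing, the reverse of mt-Co3 alone. In the sums all 13 protein genes were lower in KO growing than in WT growing, at a median of -0.60. The same 0 genes were called, and 2 with no minimum difference.

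**Figure D4:**
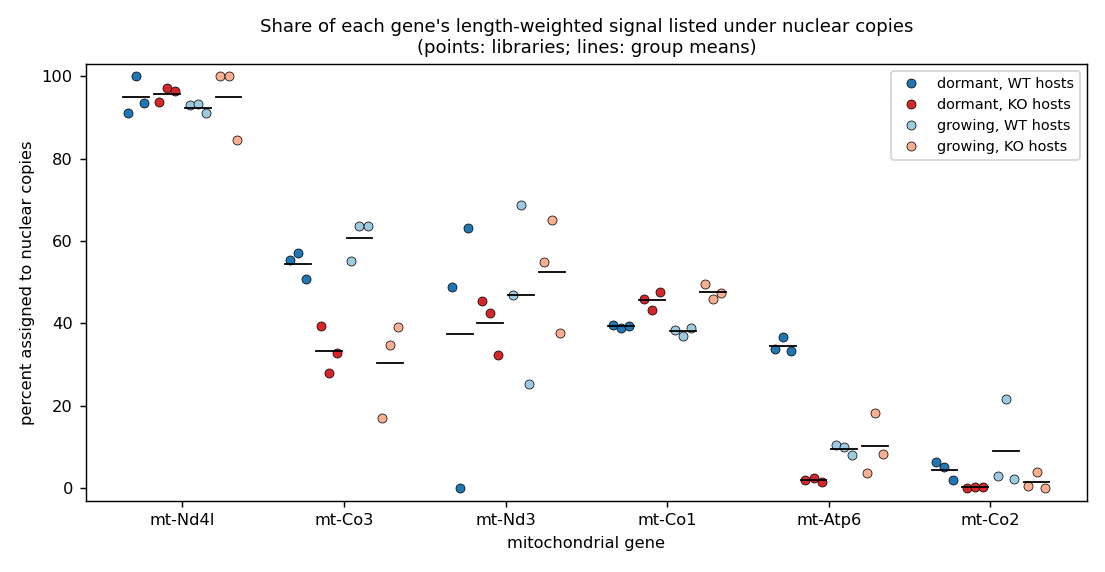
Percent of the length-weighted sum of gene and nuclear copies that was listed under the copies, for the 6 genes with a copy on chromosome 1 that took part of the signal. The mt-Atp6 copy took 33.2% to 36.7% in WT dormant and 1.65% to 2.45% in KO dormant.

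Of the nuclear genes for the same 4 complexes, none was called higher in KO dormant than in KO growing, with the minimum difference and on the deposited scale. The interaction also called 7 of the 13 mitochondrial protein genes. There 1 of 36 nuclear complex I subunits was called higher and 4 lower, or 13.9% beside 10.1% of all tested genes, and 1 of complex III lower. Between KO dormant and KO growing under median-ratio scaling, 2 of complex I, 2 of complex III and 2 of complex IV were called higher and 1, 1 and 0 lower. The medians of these lists and of ATP synthase were then above 0, at 0.24 to 0.59. That scaling called 1491 of all 13002 tested genes higher and 663 lower, and the median of all genes was 0.09. The values that follow are on the deposited scale. Among 36 nuclear subunits of complex I, 0 were called higher and 7 lower in KO dormant than in KO growing, with a median of -0.26. These 7 were 19.4% of the list, near the 17.8% of all tested genes called in that comparison. NDUFB9, an accessory subunit (Ndufb9), fell from 3025, 2867 and 2821 TPM in KO growing to 926, 767 and 1103 in KO dormant, a difference of -1.65 ± 0.14 (adjusted p = 1.44e-05). With no minimum difference 1 was higher and 8 lower. Of 9 nuclear complex III subunits 0 were higher and 2 lower, or 2 and 2 with no minimum, among them Uqcrc1, a core subunit, with a difference of -1.79 ± 0.21 (adjusted p = 0.000162). Of 11 complex IV subunits none was called in either direction by limma, while with no minimum difference 3 were higher and 1 lower. Of 15 ATP synthase subunits 0 were higher and 1 lower, and of 4 complex II subunits 0 were called, or 1 lower with no minimum. In WT hosts the same lists held 2, 0, 0, 1 and 0 called lower genes and 0 called higher, in the order complexes I, III and IV, ATP synthase and complex II. The 2 of complex I were 5.56% and the 1 of ATP synthase 6.67% of their lists, near the 7.51% of all tested genes.

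**Figure D5:**
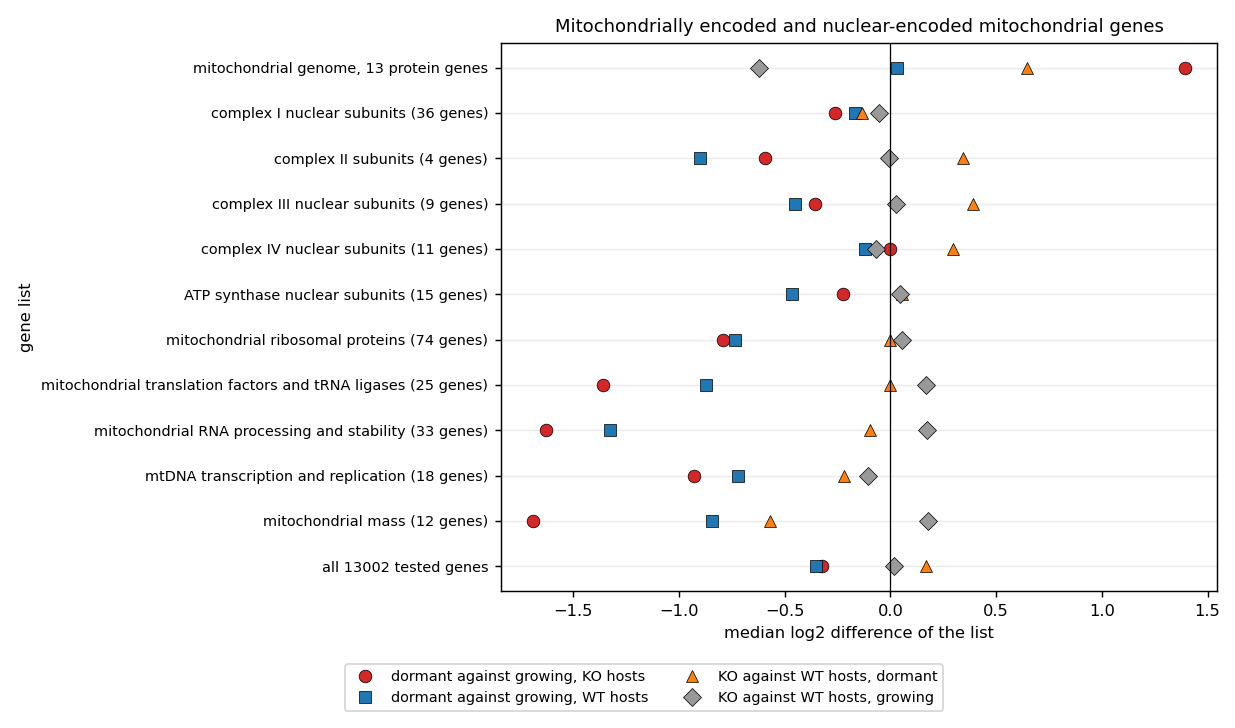
Median log2 difference of the 13 mitochondrial protein genes, of 10 lists of nuclear genes for mitochondrial proteins and of all tested genes in 4 comparisons. In KO dormant against KO growing (circles) the mitochondrial genes have a median of 1.39 and no nuclear list has a median above 0 on this scale. Under median-ratio scaling those of complexes I, III and IV and ATP synthase are above 0 (0.24 to 0.59), beside 0.09 for all tested genes.

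Nuclear genes for the machinery that expresses the mitochondrial genome were, where called on the deposited scale, lower in dormant cells with 1 exception. Of 74 mitochondrial ribosomal protein genes 15 were called lower and 0 higher in KO dormant than in KO growing, with a median of -0.79, and 7 lower and 0 higher in the WT comparison, with a median of -0.74. These were 20.3% and 9.46% of the list, near the 17.8% and 7.51% of all tested genes called, so the counts do not set the list apart. Under median-ratio scaling 3 were lower and 2 higher in KO hosts, against 663 lower and 1491 higher of all 13002 tested genes. Of 33 genes for mitochondrial RNA processing and stability 4 were lower and 0 higher in each host, with medians of -1.63 and -1.33. All 4 called in WT hosts were at 0 in every WT dormant library, as were 2 of the 4 translation factors or ligases called there. Among 25 translation factors and tRNA ligases 3 were lower and 1 higher in KO hosts, and 4 lower and 0 higher in WT hosts. The higher one was Lars2, the mitochondrial leucyl-tRNA ligase. It was at 77.1, 79.4 and 101 TPM in KO dormant and at 16.2, 19.8 and 21.04 in KO growing, a difference of 2.12 ± 0.36 (adjusted p = 0.00165). In WT hosts Lars2 was at 76.3, 33.9 and 52.1 TPM in dormant and at 31.5, 26.4 and 31.3 in growing cells, which did not overlap and gave no call. Of 18 genes for transcription and replication of the genome 2 were lower and 0 higher in KO hosts and 0 were called in WT hosts. The called shares of the RNA processing, translation and transcription lists were 12.1%, 16% and 11.1% in KO hosts and 12.1%, 16% and 0% in WT hosts.

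Genes commonly read as a measure of mitochondrial mass were, where called, lower in KO dormant. Of 12 such genes 7 were lower and 0 higher in KO dormant than in KO growing, with a median of -1.69, and 1 was lower in the WT comparison. These were 58.3% and 8.33% of the list, against 17.8% and 7.51% of all tested genes, so the share in WT hosts was near that of all genes. Under median-ratio scaling 4 were lower and 0 higher in KO hosts, against 663 lower and 1491 higher of all 13002 tested genes. Phb2 and Phb, the prohibitins of the inner membrane, were lower by differences of -2.68 ± 0.31 (adjusted p = 0.000126) and -2.26 ± 0.25 (adjusted p = 8.91e-05). Phb was at 80.7, 176 and 109 TPM in KO dormant and at 559, 571 and 543 in KO growing. The difference of Phb from WT dormant was -2.04 ± 0.25 (adjusted p = 0.000119). Slirp, which binds and protects mitochondrial messengers together with LRPPRC, was lower in KO than in WT hosts in growing cells, at 178, 84.4 and 136 against 395, 369 and 455 TPM, a difference of -1.67 ± 0.29 (adjusted p = 0.0175). It was at 70.8, 67.0 and 113 TPM in KO dormant and at 354, 448 and 429 in WT dormant, again without overlap. In the comparison of growing hosts, Slirp was the sole called gene among those 33, and no other list of mitochondrial proteins held a called gene.

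Between the dormant groups some nuclear lists held calls in both directions. Complex I subunits had 2 called higher and 4 lower in KO hosts, mitochondrial ribosomal proteins 7 higher and 5 lower, RNA processing genes 3 higher and 4 lower, and translation factors and tRNA ligases 2 higher and 4 lower. The medians of the first 3 lists were -0.14, -0.000879 and -0.10. Their called shares were 16.7%, 16.2% and 21.2%, and that of the translation factors and tRNA ligases 24%, beside 22.3% of all tested genes. The mitochondrial mass list had 0 higher and 3 lower, or 25%, at a median of -0.57, and the lists of transcription and replication, complex III and mitophagy 0 higher and 1 lower each. Among the calls, 2 RNA processing genes and 1 translation gene were at 0 in every WT dormant library. The complex IV list had 0 calls, and 5 higher and 2 lower with no minimum, at a median of 0.30, whereas the mitochondrial complex IV genes mt-Co2 and mt-Co3 were both called higher. A marker of RNA kept in the nucleus, Malat1, was at 16692, 26990 and 29170 TPM in WT dormant, 5689, 10828 and 6038 in KO dormant, 3396, 6140 and 5233 in WT growing and 809, 752 and 2395 in KO growing. It was thus higher in dormant than in growing cells in each host and lower in KO than in WT hosts in each state, with no overlap in any of these. Its part, like that of the lung and blood cell markers, in the levels of the mitochondrial genes was not tested.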

How the data were processed

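The deposited values were TPM. Per the submitters' processing notes, the authors used cutadapt 1.18 for trimming, STAR 2.5.2b for alignment to mm10, and for the levels RSEM 1.3.3, on a GENCODE annotation per the methods, which give other versions of cutadapt and RSEM. The kit is TruSeq mRNA in the labels and Smart-seq in the methods, and use of strand was not given in the sources used here. TPM keeps no depth, so no counting interval is given and precision is the spread of 3 libraries. RSEM divides reads between similar sequences by estimation, which touches genes with nuclear copies. The study describes biological triplicates with 3 mice a group. The labels do not name the mouse of a library. A further 30 per-sample columns matched no labelled sample and were not used.

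Genes with at least 1 TPM in at least 3 libraries (13002) were tested on log2(TPM + 1), a scale that understates changes of low genes, with limma 3.58.1 (R 4.3.3, eBayes with trend, 8 residual degrees of freedom), two-sided, with Benjamini-Hochberg adjustment. DESeq2, which the authors used, was not run because TPM are not counts. All 37 members were matched by gene identifier to GENCODE M21. Sequences were read from the GENCODE M21 transcripts (GRCm38) with Python 3.11.15. Their coordinates were derived from the annotated genes, with windows in the copies placed by alignment. The members, the gene lists, taken from general knowledge, and the tests were chosen with earlier results of these data known. All protein and rRNA genes were named, tRNA genes only if called, and of each nuclear list up to 2 called genes per direction and comparison with groups that did not overlap. The fit was tested on simulated data for KO dormant against WT dormant over 12402 genes: 8 of 100 genes changed by 1 log2 unit and 64 of 100 changed by 3 were called, and 8 unchanged genes. Alternatives covered the pseudocount, filter, scaling, fit, thresholds, nuclear copies and each library left out.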

Additional observations from a re-analysis of the deposited data

Results flagged for a closer look

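For 7 protein genes the difference between dormant and growing cells was not the same in KO and WT hosts by the test of the interaction itself (limma, called). On the log2(TPM + 1) scale the difference of differences was 2.55 for mt-Nd3, 1.69 for mt-Nd1, 1.52 for mt-Nd2, 1.41 for mt-Co2, 1.35 for mt-Nd4, 1.22 for mt-Atp6 and 1.03 for mt-Co3. Summed with its nuclear copy, mt-Atp6 fell to 0.62 and was not called (adjusted p = 0.155). In a fit without trend 4 of the 7 were not called, with adjusted p of 0.0666 for mt-Co2, 0.0906 for mt-Nd4, 0.119 for mt-Atp6 and 0.167 for mt-Co3. mt-Co3 also fell under the minimum without WT dormant replicate 2, WT growing replicate 1 or KO growing replicate 3, at 0.85 to 0.95, and mt-Atp6 without WT dormant replicate 2, at 0.95. The interaction also takes in the KO to WT difference in growing cells. That difference was negative for 12 of the 13 protein genes, among them mt-Nd2 (-0.88, beside 0.64 in dormant cells), and positive for mt-Co3. Each of the 7 interactions was positive, and each rests on the KO dormant libraries, which also carry the alveolar, erythroid and other lung markers, so no value without that group can be given. The part of those markers was not tested.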

How the results depend on the processing

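Depth is unknown, replicates are 3 a group, and in KO hosts and between dormant groups the results rest on libraries with other marker levels. Of 332 counts of called genes recomputed under 28 alternatives, 292 stayed within 1.5 times the value reported. The scaling mattered most, and why was not tested. Median-ratio scaling, which moved the median of all genes from -0.32 to 0.09 between states in KO hosts and from 0.17 to 0.50 between dormant groups, gave 8 protein genes between dormant groups, 11 between states in KO hosts, 6 over both hosts and 11 for the interaction, and 2 rRNA genes for the interaction. Scaling each library to its own mitochondrial protein genes, which removes by construction what they share, gave 2, 2, 0 and 1 protein genes in that order, and 0, 1 and 1 rRNA genes between states in WT hosts, then in KO hosts and across both. Quantile normalization gave 4 protein genes over both hosts, and 1 rRNA gene between growing groups and 0 between states in WT hosts. With no minimum difference 8, 2, 11, 9 and 9 protein genes were called between dormant groups, between growing groups, between states in KO hosts, over both hosts and for the interaction. An eBayes fit without trend left 3 protein genes for the interaction, ending the calls of mt-Atp6, mt-Co2, mt-Co3 and mt-Nd4. The mt-Co3 interaction also ended with array weights, quantile normalization and an adjusted p of at most 0.01, and that of mt-Atp6 with quantile normalization and with its copy summed. The mt-Rnr2 call in WT hosts ended, at 0 called, with no filter, with only the groups compared, with array weights, without trend and at an adjusted p of at most 0.01. The rRNA count was 1 between growing groups with only the groups compared and with array weights, and 1 for the interaction with array weights. The scalings of the nuclear lists and the sums with nuclear copies were chosen after seeing the data. The sums left 1 protein gene over both hosts, without mt-Co3.

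Leaving out each library in turn gave 2 to 5 called protein genes between dormant groups, 0 to 0 between growing groups and between states in WT hosts, 7 to 8 between states in KO hosts, 1 to 4 over both hosts and 5 to 8 for the interaction. The rRNA counts were 0 to 1 between dormant groups, between growing groups, between states in WT hosts and for the interaction, and 2 to 2 in KO hosts and over both. Without WT dormant replicate 2 the counts were 2 protein genes between dormant groups and 4 over both hosts, and 1 rRNA gene between dormant groups and 1 for the interaction. Without WT growing replicate 2 the rRNA counts were 0 between states in WT hosts, 1 between growing groups and 1 for the interaction. Over both hosts 1 protein gene was called without WT dormant replicate 1 or 3, WT growing replicate 3 or KO growing replicate 3.

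Differences changed sign in 17 of 1212 recomputed values of single genes with an adjusted p of at most 0.05. Between dormant groups these were mt-Nd2 (-0.10), mt-Atp6 (-0.22) and mt-Nd4 (-0.10) under scaling to the mitochondrial protein genes, and mt-Atp6 under quantile normalization (-0.014) and when summed with its copy (-0.056). Between states in KO hosts, mt-Co1 (-0.40), mt-Atp6 (-0.33), mt-Nd5 (-0.37) and mt-Cytb (-0.74) turned under the mitochondrial scaling, and mt-Atp6 (-0.045) and mt-Cytb (-0.049) under quantile normalization. Under the mitochondrial scaling so did mt-Nd1 (-0.087), mt-Co1 (-0.22) and mt-Nd5 (-0.11) over both hosts, and mt-Co1 (-0.36), mt-Co3 (-0.14) and mt-Cytb (-0.57) for the interaction. mt-Nd3 in KO hosts and between dormant groups, and mt-Rnr1 in KO hosts and over both, stayed called under every alternative.

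Replicate numbers are shared between groups, but the deviations of same-numbered libraries correlated at -0.01 to 0.02 in 18 pairs, 0 of them over 0.1, so the numbers were not taken to pair libraries. With the number as a replicate block, the called protein genes were 4, 0, 0, 7, 2 and 7 in the 6 comparisons, the same counts as without it.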
